A study of Mus musculus with 9 samples.

Results

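The control cells of a knockdown experiment in mouse cardiac fibroblasts were examined on their own, to describe what a sorted and replated adult heart fibroblast expresses. They make up 3 of the 9 libraries of the series and were chosen only by their label, control. The cells came from ROSACas9-EGFP mice, whose cells make the Cas9 nuclease together with EGFP, at 8 to 10 weeks of age. Dissociated heart cells were grown for 3 days, sorted as CD45-CD31-CD90+, replated at 10000 cells per cm2 and, 6 days later at 80 to 90% confluency, transfected with scrambled guide RNAs by a lipid reagent. The study's methods place RNA collection days after transfection and give no confluency for that time. CD45 and CD31 mark blood and endothelial cells, and CD90, the product of Thy1, marks fibroblasts among other mesenchymal cells. All control cells therefore carried Cas9 and received RNA and lipid, and untransfected cells were not analysed here. The study's methods describe male mice and biological replicates, whereas the labels name no animal, sex or batch, so how much of the spread between the libraries a, b and c is technical cannot be told apart. Against that sex, Xist, the RNA of the inactive X chromosome that is normally made in females, was at 362, 396 and 345 CPM (scaled counts, defined further on), and Y-linked genes were detected in the same libraries.

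Fibroblasts build and turn over the extracellular matrix of the heart. In culture on plastic with serum they divide and take on features of myofibroblasts, the contractile, matrix-secreting state seen in scars. The cardiac lineage is also known for keeping transcription factors of heart development, such as Gata4 and Tbx20, the targets in the other groups. Of these, the study reports Gata4 in fibroblasts of every organ it examined, and Tbx20 in those of the heart only.

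The guides given to control cells are the condition that sets these libraries apart by design, so their protospacers are shown. The study's guide table lists 2 guides with no genome position, each 20 bases long. Neither had an exact match on either strand in any of 141767 GENCODE transcripts, and the genome outside transcripts was not searched.
NTC_sgRNA1: gcgaggtattcggctccgcg
NTC_sgRNA2: gctttcacggaggttcgacg

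Promoter sequences are shown for 4 well-known members of the contractile, interferon-stimulated and cell division groups described further on. They are RefSeq windows before the start of the gene on GRCm38.p6, written 5′ to 3′ along the gene's own strand and running up to the last base before the start. Capitals mark, on either strand, CArG-like boxes in Acta2, the core of the interferon response element in Isg15 and Ifit3 (GAAA, 2 bases of any kind, GAAA), and CCAAT and TTTGAA in Cdk1. GENCODE places the starts of Acta2 and Cdk1 further upstream, so part of those stretches lies inside the GENCODE gene.
Acta2, chr19:34255374-34255467, minus strand: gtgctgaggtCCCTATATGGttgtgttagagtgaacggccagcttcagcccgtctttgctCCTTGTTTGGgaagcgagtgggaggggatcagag
Isg15, chr4:156200819-156200906, minus strand: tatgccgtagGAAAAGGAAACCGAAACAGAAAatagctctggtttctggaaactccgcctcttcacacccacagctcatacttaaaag
Ifit3, chr19:34583363-34583528, plus strand: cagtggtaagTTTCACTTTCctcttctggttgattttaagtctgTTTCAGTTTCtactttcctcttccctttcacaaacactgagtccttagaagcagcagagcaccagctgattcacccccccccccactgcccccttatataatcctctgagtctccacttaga
Cdk1, chr10:69352913-69353130, minus strand: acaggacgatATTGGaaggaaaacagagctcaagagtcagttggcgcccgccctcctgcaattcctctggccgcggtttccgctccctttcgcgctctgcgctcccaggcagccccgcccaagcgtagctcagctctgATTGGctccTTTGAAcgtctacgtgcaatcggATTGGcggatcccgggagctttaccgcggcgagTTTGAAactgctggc

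The libraries held 36980564 (a), 36270725 (b) and 32706062 (c) counts. Values are given as CPM, counts scaled to a fixed library total, after scaling of the libraries, and ± gives the SD over the 3 libraries (n = 3). A gene was called detected at 1 CPM or more in every library, which corresponds to 33.5 to 37.1 counts and a counting error of 16.4 to 17.3%. By this rule 12307 of 38924 genes, 31.6%, were detected, and of protein-coding genes 11683 of 21226, 55.0%. A gene with no count in library c could still be present at up to 0.0897 CPM (3 counts). In bulk RNA, fewer cells of a type and less RNA per cell cannot be told apart. Ranks follow mean CPM, in which long transcripts give more reads. Levels of different genes are therefore also given as TPM, which divides CPM by exon length and rescales the total, and an order by CPM alone is named as such.

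Library b stood apart from the other controls. The median coefficient of variation (CV, the SD as a percentage of the mean) of detected genes was 9.70%, against a median counting error of 3.08%. In b 341 genes were at least 1.5-fold above both other libraries, which is 2.77% of those detected, and 147 were at least 1.5-fold below. The same counts were 18 and 27 for library a, and 58 and 134 for library c. Genes high in b had a median GC content of 40.1% and a median transcript length of 3702 bases, against 49.9% and 3056 bases for all detected genes. Their part in the difference was not tested. A CV of at least 30% was found for 575 detected genes, 4.67%, and for 267 when library b was left out. The 3 libraries were not copies of each other, since the chi-square of their counts was 15.7 to 54.6 per degree of freedom, far above what sampling of reads alone would give.

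The cells carried the markers of fibroblasts. All 7 markers, Thbs1, Fn1, Col1a1, Acta2, Pdgfra, Tcf21 and Thy1, were at 82.3 CPM or more in every library. Of 25 fibroblast identity genes 22 were detected, against 55.0% of all protein-coding genes. Pdgfra (chr5:75152292-75198215, plus strand), the receptor for platelet-derived growth factor that defines most cardiac fibroblasts, was at 437, 529 and 381 CPM, mean 449 ± 74.5. Library b was the highest and c the lowest. Tcf21 (chr10:22817281-22820174, minus strand), a transcription factor needed to form cardiac fibroblasts, was at 178, 202 and 167 CPM, mean 182 ± 18.1, in the same order. Thy1 (chr9:44043384-44048579, plus strand), the gene of the sorting marker, was at 110, 82.3 and 90.8 CPM, mean 94.3 ± 14.1, with library a the highest. It ranked 2488th of all genes by mean CPM.

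Among the other identity genes, Vim, an intermediate filament of mesenchymal cells, was at 2747 ± 108 CPM, and Pdgfrb, Ddr2, Pdpn and Eng were between 296 and 576 CPM on average. Other members varied widely in level. Ly6a, a surface protein of many tissue fibroblasts, was at 365 ± 44.1 CPM and Gsn, an actin-severing protein, at 302 ± 5.11 CPM. Dpt, a matrix protein of connective tissue, was at 15.9, 24.4 and 9.62 CPM, and Pi16, a marker of adventitial fibroblasts, at 0.270, 0.170 and 0.120 CPM. Lum, a small proteoglycan, was at 0.971, 3.56 and 0.628 CPM, and Fap, the fibroblast activation protease, at 0.648, 1.07 and 0.837 CPM. Pi16, Lum and Fap were the identity genes that missed the detection rule.

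**Figure D1:**
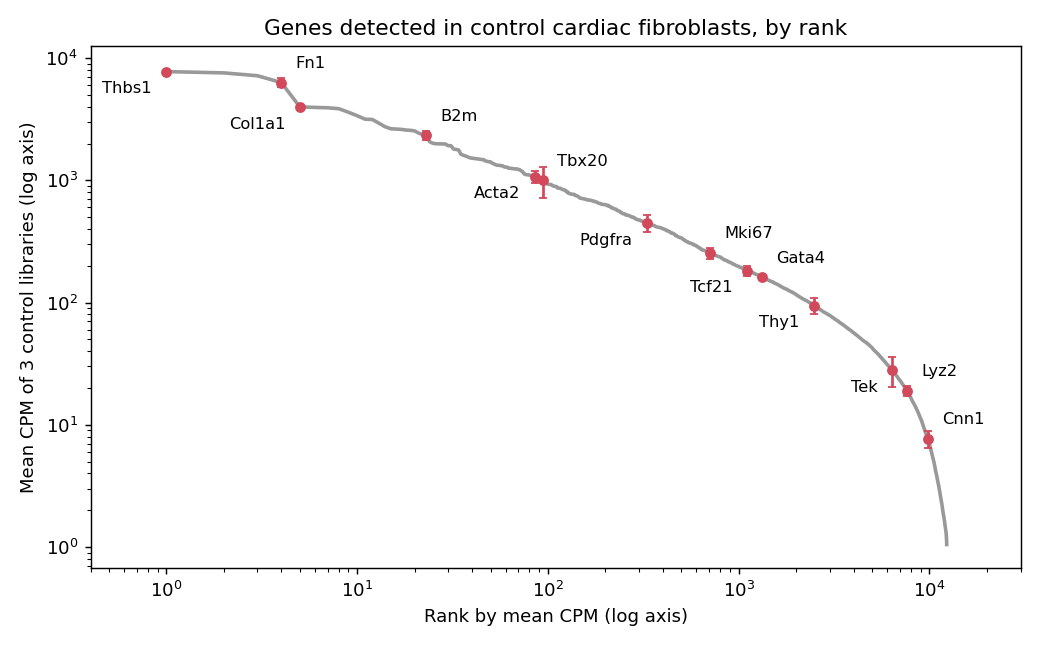
Mean CPM of each detected gene against its rank, both on log axes, with named genes as points and bars for the SD over the 3 control libraries. Thbs1 held the first rank, Acta2 and Tbx20 lay at ranks 85 and 94, and the endothelial gene Tek lay at rank 6365 with the leukocyte gene Lyz2 beyond it.

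Genes of the matrix and its regulators were among the most abundant messages by CPM. Of the 20 genes highest by mean CPM, 9 encode matrix proteins or their regulators, among them Thbs1, Fn1, Col1a1, Sparc, Col1a2, Bgn, Col3a1 and Fbln2. The others included Eef1a1, Gm42418, Actb, mt-Co1, Vim, Ahnak, Actg1, Rnf213, Flna and Hsp90ab1, which include cytoskeletal and housekeeping genes. The 10 highest genes took 5.62, 4.71 and 5.15% of counts in a, b and c, and the 100 highest 19.6, 18.0 and 19.1%. Per length the 15 highest genes were Gm42418, Eef1a1, B2m, mt-Co1, Ifitm3, Lgals1, Ftl1, Thbs1, Actb, S100a11, Rps12l1, S100a4, Ifit3, mt-Co2 and Sparc, of which Thbs1 and Sparc are matrix genes. Lgals1, a secreted galectin, was at 6050 ± 728 TPM and S100a4, a calcium-binding protein often used as a fibroblast marker, at 4254 ± 728 TPM. Rps12l1 shares all and mt-Co2 99.5% of their windows of 75 bases, the read length, with other genes, so their levels are uncertain. Gm42418, a predicted gene that overlaps ribosomal RNA sequence, was the least even of the 20, at 11082, 4748 and 5718 CPM.

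Thbs1 (chr2:118111876-118127133, plus strand), the matricellular protein thrombospondin 1 that activates latent TGF-beta, ranked first at 7510, 7725 and 8072 CPM, mean 7769 ± 284. Fn1 (chr1:71585520-71653200, minus strand), fibronectin, was at 6913, 6001 and 6044 CPM, mean 6320 ± 514. Col1a1 (chr11:94936224-94953042, plus strand), the main chain of type I collagen, was at 4034, 4007 and 3950 CPM, mean 3997 ± 43.1, and its CV of 1.08% was the lowest among the collagens. Per length the order changed: Thbs1 was at 4697 ± 196 TPM, Col1a1 at 2236 ± 24.2 TPM, Fn1 at 1984 ± 144 TPM and Acta2 at 1788 ± 188 TPM. The library values of Fn1, from 1901 to 2150 TPM, stayed below those of Col1a1 and, narrowly, above those of Acta2, which reached 1899 TPM. With the length of the principal transcript in place of all exons, Col1a1 at 1677 TPM fell behind Fn1 at 1890 TPM, so their order depends on the length used.

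The collagen genes covered a wide range of levels. Of 44 collagen genes 24 were detected, close to the 55.0% of all protein-coding genes, and together the collagens took 2.01% of CPM. Of the fibril-forming chains beside Col1a1, Col1a2 was at 3860 ± 405, Col3a1 at 3167 ± 480, Col5a2 at 1994 ± 172 and Col5a1 at 1034 ± 60.6 CPM. Basement membrane chains were also abundant, with Col4a1 at 2377 ± 94.8 and Col4a2 at 1331 ± 76.4 CPM. Per length of all exons, Col4a1 at 1169 ± 53.6, Col3a1 at 1185 ± 184 and Col1a2 at 1141 ± 125 TPM overlapped in their ranges. With the principal transcript as length, Col1a2 was at 1797, Col3a1 at 1417 and Col4a1 at 895 TPM, so that closeness depends on the length used. Col4a3 and Col4a4, which form the network of kidney and lung, were at or under 1.33 CPM. Col15a1, a chain found next to basement membranes, was the least even of the detected chains at 23.9, 29.6 and 13.2 CPM. Network, cartilage and epithelial chains such as Col10a1, Col9a1 and Col17a1 were at or under 0.717 CPM in every library. Col2a1, best known from cartilage, was in contrast clearly present at 71.5, 64.9 and 80.5 CPM.

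Of 34 matrix glycoproteins 30 were detected, against 55.0% of all protein-coding genes. Sparc, a collagen-binding protein, was at 3954 ± 225 CPM, and Fbln2, an elastic fibre component, at 2933 ± 281 CPM. Tnc, tenascin C, and Postn, periostin, which appear in healing tissue, were at 1991 ± 189 and 1034 ± 198 CPM. Elastin was low, with Eln at 0.810, 2.09 and 0.418 CPM, as were Comp, Cilp and Vtn. Mfap4, a fibril-associated protein, was the least even of the list, at 12.7, 19.6 and 5.80 CPM. Among 16 proteoglycans Bgn stood alone at 3609 ± 224 CPM, and Aspn and Ogn, small leucine-rich members of the list, had the highest CV of the detected matrix genes. Ogn was at 46.7, 99.8 and 26.4 CPM and Aspn at 6.34, 18.7 and 2.72 CPM, each highest in b and lowest in c. Dcn followed the same order at 151, 188 and 108 CPM.

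All 17 genes for crosslinking and collagen processing were at 10 CPM or more in every library, against 23.0% of all genes. Serpinh1, the chaperone of procollagen, was the highest by CPM and per length, with 2067 ± 99.3 CPM, followed by P4hb with 1006 ± 31.3 CPM and Lox, lysyl oxidase, with 851, 1224 and 715 CPM. Of the proteases and inhibitors 18 of 20 were detected, against 55.0% of all protein-coding genes. Inhibitors were abundant, with Timp3, Timp2 and Timp1, which block metalloproteinases, at 1228, 1129 and 710 CPM on average, an order by CPM alone. Per length the order reversed, with Timp1 at 2933 ± 193, Timp2 at 1064 ± 69.8 and Timp3 at 553 ± 63.4 TPM. The principal transcript as length kept that reversed order. Mmp14 at 407 ± 8.04 CPM and Mmp2 at 178 ± 34.6 CPM were the highest metalloproteinases of the list, also per length, at 251 ± 2.86 and 194 ± 38.6 TPM. Mmp3 was the least even, at 46.4, 75.2 and 32.5 CPM. Timp4 had no count in any library.

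**Figure D2:**
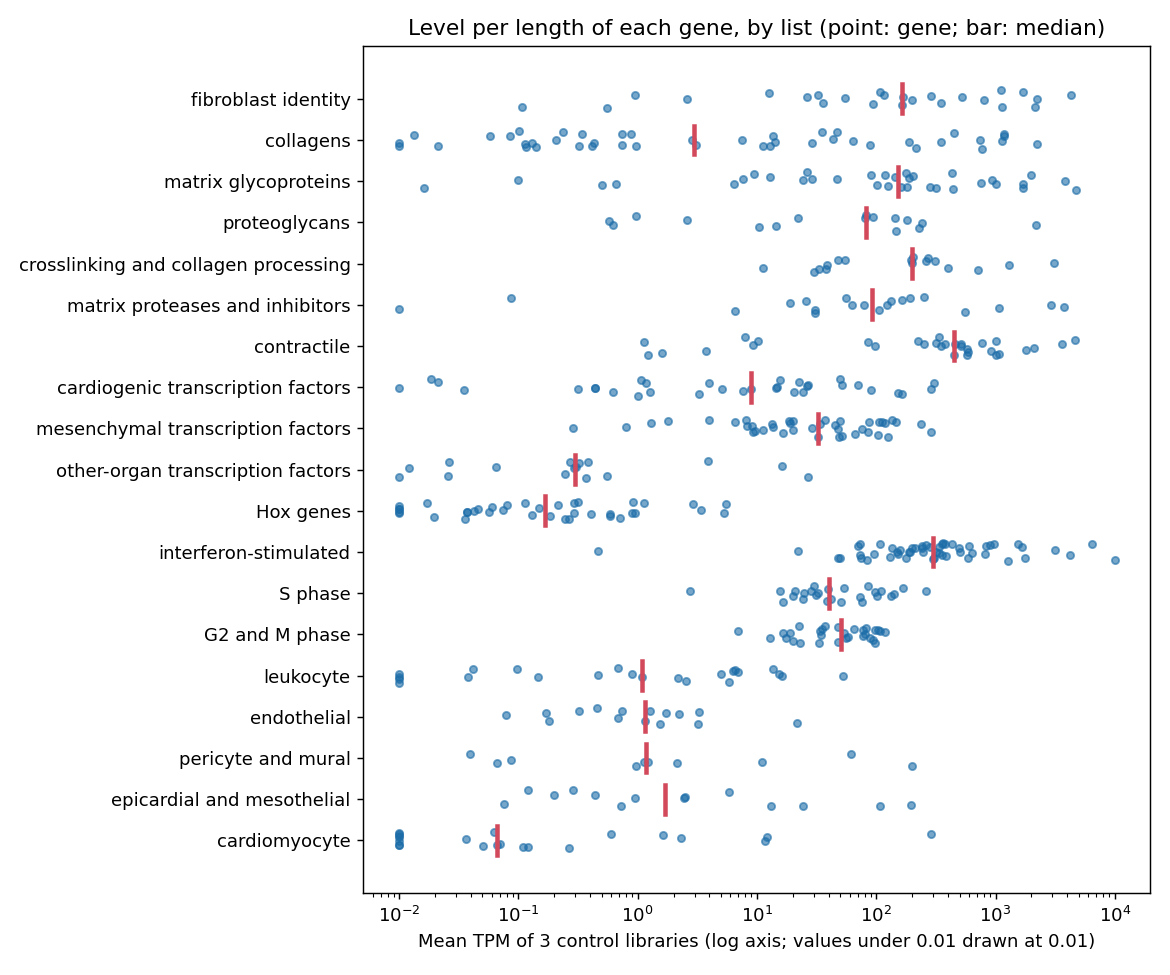
Mean TPM of each gene over the 3 control libraries on a log axis, by gene list, with 1 point per gene and a bar at the median of the list. Of the lists drawn, contractile and interferon-stimulated genes had the highest medians, and cardiomyocyte, Hox and other-organ transcription factor genes the lowest.

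The contractile list fell into a large abundant group and a small scarce group. Of 31 genes 30 were detected, against 55.0% of all protein-coding genes, and the list took 2.32% of CPM. Acta2 (chr19:34241090-34255590, minus strand), smooth muscle actin and the usual marker of myofibroblasts, was at 1144, 932 and 1135 CPM, mean 1070 ± 120, with library b the lowest. The nonmuscle actins Actb and Actg1 were at 4632 ± 427 and 3633 ± 352 TPM, ahead of Acta2 at 1788 ± 188 TPM. Tagln, transgelin, was at 438, 378 and 431 CPM, and the nonmuscle myosin Myh9 at 1804 ± 49.7 CPM. Several genes of mature smooth muscle were far lower. Cnn1, calponin, was at 8.45, 6.22 and 8.31 CPM, Actg2 at 3.45, 2.37 and 4.33 CPM, Myh11, smooth muscle myosin, at 1.81, 2.54 and 2.60 CPM, and Des, desmin, at 1.51, 1.30 and 0.957 CPM. On the TPM scale 24 genes, down to Smtn at 85.1 TPM, were separated from Cnn1 at 10.3 TPM and 6 lower genes. No library crossed that gap. Smtn is itself a smooth muscle gene, so the gap did not part smooth muscle genes from the rest. Mylk, the kinase of smooth muscle myosin, was the least even at 4.53, 6.73 and 3.50 CPM. Library b was the lowest of the 3 for 21 of the 30 detected genes, against 40.5% of all detected genes.

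**Figure D3:**
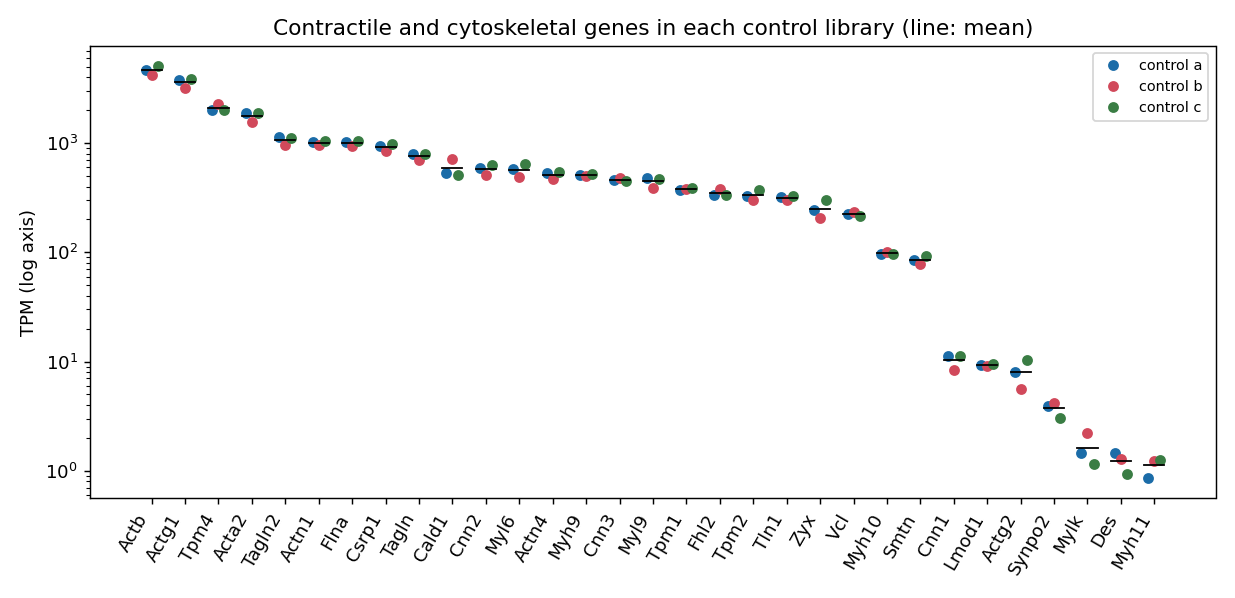
TPM of each contractile gene in the 3 control libraries on a log axis, with points for libraries and a line for the mean. Acta2, Tagln and most other genes of the list lie in a wide upper group, and 7 genes including Cnn1, Actg2 and Myh11 lie below that group in every library.

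A CArG box, the site bound by serum response factor in contractile promoters, was searched on both strands. It was found in promoter windows of 6 of 26 contractile genes with a window (Actg1, Cnn2, Fhl2, Myl6, Myl9 and Vcl), that is in 23.3% of their windows, against 1.63% of all windows. Acta2 holds no strict box. When 1 mismatch in the A/T core was allowed, a choice made after the strict search, it matched at 84 and 34 bases before the start, as capitalised above. This looser form occurs in 26.7% of contractile windows, those of 7 genes, against 9.98% of all windows, a smaller contrast than for the strict box. TATAAA was present in 9.52% of collagen windows and 21.4% of matrix glycoprotein windows, including those of Col3a1, Postn and Tnc, against 13.6% of all windows and 7.13% of those of detected genes. Among windows of detected genes the strict CArG box was in 1.35%, the interferon response core in 3.19%, CCAAT in 37.9% and TTTGAA in 12.1%.

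Transcription factors of heart development were present in part. Of 33 cardiogenic factors 23 were detected (69.7%), against 55.0% of all protein-coding genes. Tbx20 (chr9:24718138-24774303, minus strand), a T-box factor of the heart, was at 1002, 1288 and 714 CPM, mean 1001 ± 287, and ranked 94th of all genes. It was also among the less even of the list, with b the highest and c the lowest and a CV of 28.7%, after Mef2c at 12.3, 19.0 and 10.8 CPM and Foxc1. Gata4 (chr14:63198922-63271692, minus strand), a zinc finger factor of heart formation, was at 164, 156 and 166 CPM, mean 162 ± 5.20, with a CV of 3.21%. Per length, Tbx20 at 307 ± 89.4 TPM and Tcf21 at 285 ± 30.1 TPM overlapped in their ranges, and with the principal transcript as length Tcf21 at 358 TPM came ahead of Tbx20 at 275 TPM. Tead1 at 163 ± 19.8 TPM and Gata4 at 152 ± 4.07 TPM overlapped as well. Tbx18, known from the epicardium, came next at 90.4 ± 7.88 TPM, and its libraries did not overlap with those of Gata4. With the principal transcript as length it was at 61.8 TPM and in place 7 of the list. Gata6 and Hand2 were at 40.1 and 33.1 CPM on average.

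Several other factors of heart development were under the detection rule. Nkx2-5, the homeobox factor of cardiomyocytes, was at 0.189, 0.170 and 0.0897 CPM, and Tbx5 at 1.75, 0.820 and 1.91 CPM. Isl1, Hand1 and Gata5 had no more than 0.0598 CPM in any library, below what 3 counts would give, and Irx4 had no count. Wt1, of the epicardium, was at 0.837, 0.622 and 0.777 CPM.

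**Figure D4:**
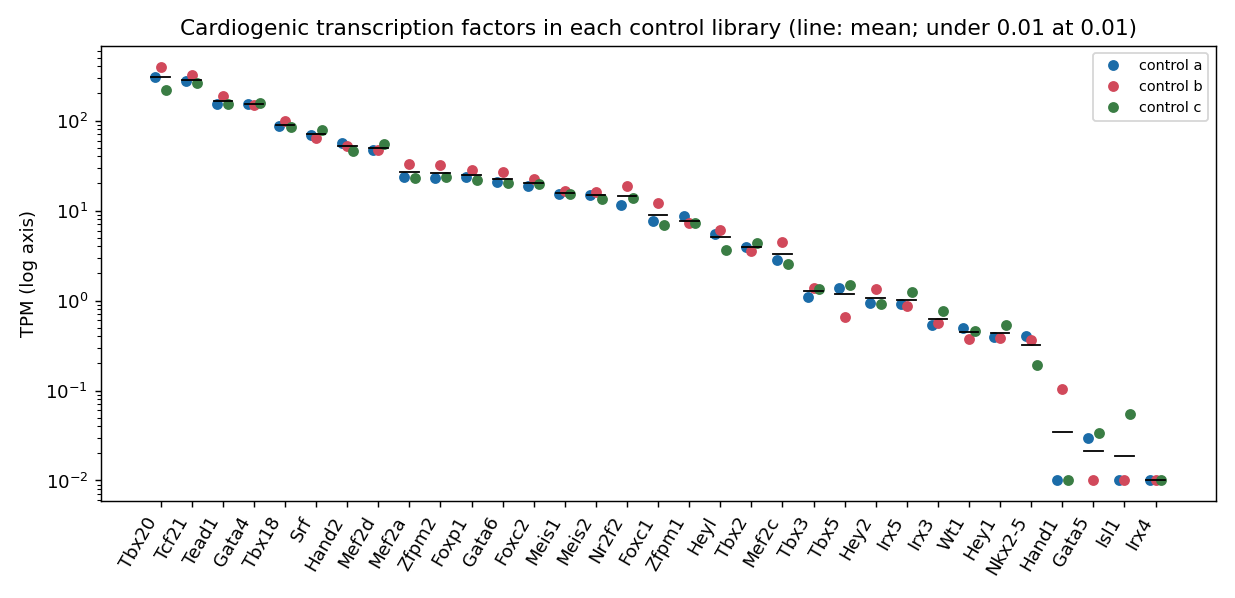
TPM of each cardiogenic transcription factor in the 3 control libraries on a log axis, ordered by mean, with a line for the mean and values under 0.01 drawn at 0.01. The list spans from Tbx20 at 307 and Tcf21 at 285 TPM to Irx4 with no count.

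Of 41 mesenchymal transcription factors 37 were detected, against 55.0% of all protein-coding genes. Per length Atf4, a factor of the stress response, at 289 ± 27.2 TPM and Creb3l1, a factor of collagen secretion, at 238 ± 17.7 TPM came first. By CPM alone the highest were Prrx1 at 287, 391 and 279, Zeb2 at 243, 317 and 227 and Fosl2 at 219, 246 and 227, factors of mesenchymal identity, epithelial-mesenchymal transition and the AP-1 complex. Library b was the highest for 26 of these 37 genes and for 17 of the 23 detected cardiogenic factors, against 43.2% of all detected genes. The early response gene Egr1 was at 22.1, 89.6 and 23.4 CPM, the highest CV of the list, and Fos at 3.80, 9.92 and 4.12 CPM. Factors of other organs were scarce, with 3 of 16 detected, below the 55.0% of all protein-coding genes. They were Emx2 at 19.7, 25.3 and 20.3, Foxf1 at 10.8, 10.7 and 10.3 and Lhx9 at 7.93, 11.6 and 10.5 CPM. Of 38 Hox genes, which mark position along the body axis, 5 were detected, also below that share. They included Hoxb4, Hoxb2, Hoxd8 and Hoxb3, and all 5 were at 3.97 CPM or less in every library, and 4 Hox genes had no count.

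Lists of organ-enriched fibroblast genes that the study had drawn from microarrays of other samples were counted in the same way. Of the heart list 40 of 42 names were matched and 32 detected, with a median of 17.1 CPM. The detected shares were 17 of 45 for skin, 19 of 52 for lung, 40 of 99 for liver, 24 of 96 for kidney and 15 of 38 for gonad, with medians between 0.114 and 0.683 CPM. These shares lie on both sides of the 31.6% of all genes and below the 55.0% of protein-coding genes. The summed level was highest for the whole heart list, at 3881 ± 572 CPM. The gonad list came next at 2900 ± 178 CPM, most of which was 1 gene, Col4a1 at 2377 CPM. Without its interferon-stimulated members the heart list summed to 2293 ± 538 CPM, on average below the gonad list with Col4a1 kept in it. By CPM the heart list was led, after Tbx20, by Tgtp2 at 472 ± 83.4, Zbp1 at 320 ± 16.2 and Frzb at 311 ± 79.5 CPM. Tgtp2 shares 81.4% of its 75-base windows with other genes and is uncertain. The heart list has 6 genes in common with the interferon-stimulated list, and without these 26 of 34 were detected with a median of 14.1 CPM. Frzb, a secreted Wnt inhibitor, was at 322, 385 and 227 CPM and Gucy1a1, a subunit of the nitric oxide receptor, at 10.6, 27.6 and 8.40 CPM, both highest in b. A further list, of genes shared by fibroblasts of all organs, had 1009 matched members, of which 907 were detected.

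Interferon-stimulated genes were abundant in every control library. Type I interferons signal through Ifnar1 and Ifnar2 to factors that include Stat2 and Irf9, which switch on antiviral genes. Of 54 such genes 53 were at 10 CPM or more in every library, against 23.0% of all genes, and the list took 2.44% of CPM with summed values of 23522, 26653 and 23132 CPM. B2m, the light chain of MHC class I, was at 2315, 2528 and 2172 CPM, and Ifit3, an antiviral RNA-binding protein, at 1851, 2140 and 1959 CPM. Per length, B2m at 9985 ± 818 TPM, Ifitm3 at 6428 ± 431 TPM, Ifit3 at 4174 ± 345 TPM and Isg15, a ubiquitin-like modifier, at 3159 ± 199 TPM led the list, and their libraries did not overlap. These 4 kept that order with the principal transcript as length. Ifit3 shares 41.1% of its 75-base windows with other genes, so its count is less certain.

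Regulators and effectors were both present. Irf7, the factor that amplifies the response, was at 924, 955 and 907 CPM with a CV of 2.64%, and Stat2 was at 423 ± 20.2 CPM. The RNA sensors Ddx58 (RIG-I) and Ifih1 (MDA5) were at 438, 501 and 444 and at 313, 406 and 300 CPM. Usp18, which restrains the pathway, was at 484 ± 23.5 CPM. Library b was the highest for 33 of the 53 detected genes, against 43.2% of all detected genes. Ifit2, the least even of the list, and Rsad2 were among these 33, at 202, 398 and 182 CPM and at 281, 472 and 324 CPM. Ifitm1 was the exception to the list, with at most 0.198 CPM.

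The ligands were far lower than the stimulated genes in CPM. Ifnb1, interferon beta, was at 1.43, 2.94 and 2.69 CPM, lowest in a, and Ifna4 at 0.135, 0.452 and 0.568 CPM. Ifng, Ifna1, Ifna2, Ifnl2 and Ifnl3 had no count in any library. The receptor genes Ifnar1 and Ifnar2 were at 65.8 ± 3.51 and 49.9 ± 2.88 CPM and Ifngr1 and Ifngr2 at 46.6 and 52.4 CPM on average, whereas Ifnlr1, the receptor chain for interferon lambda, stayed below 1 CPM. The core of the interferon response element was found, on either strand, in promoter windows of 23 of 41 interferon-stimulated genes with a window, 47.1% of their windows against 3.44% of all windows. Isg15 carries 3 overlapping copies from 78 bases before the start and Ifit3 carries copies at 156 and 122 bases before it.

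The cultures expressed the genes of dividing cells. All 26 S phase and all 30 G2 and M phase genes were detected, against 55.0% of all protein-coding genes. Mki67, the proliferation marker, was at 248, 234 and 284 CPM, mean 255 ± 25.8, and Top2a, which untangles sister chromatids, at 263, 269 and 255 CPM. Pcna, the clamp of DNA polymerase, was at 172, 153 and 188 CPM and the highest of the S phase list per length, at 261 ± 25.7 TPM, and Rrm1, a subunit of ribonucleotide reductase, was the highest by CPM alone, at 303 ± 6.85 CPM. Cdk1, the kinase of mitotic entry, was at 133, 107 and 151 CPM. Library b was the lowest for 21 of 26 S phase and 17 of 30 G2 and M phase genes, and library c the highest for 16 and 20 of them. For all detected genes these shares were 40.5% for b the lowest and 36.1% for c the highest. Ccne2, a cyclin of S phase entry, went the other way, at 26.2, 39.2 and 27.0 CPM.

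Inhibitors of division were expressed in the same libraries. Cdkn1a, the p21 inhibitor, was at 481, 459 and 455 CPM, and its regulators Trp53 and Mdm2 were at 148 ± 19.9 and 326 ± 19.0 CPM. Ccng1, another p53 target, was at 689, 971 and 664 CPM. Cdkn2a, which encodes the senescence markers p16 and p19, was at 14.9, 12.5 and 13.5 CPM, and Cdkn1c was not detected. Gas1, a growth arrest gene, was the least even at 6.21, 12.9 and 4.36 CPM. CCAAT was found in windows of 20 of 25 G2 and M phase genes (80.0% of windows) and 13 of 21 S phase genes (62.5%), against 37.4% of all windows. TTTGAA, the core of the cell cycle homology region, was found in windows of 19 of 25 G2 and M phase genes (76.0%) and 2 of 21 S phase genes (8.33%), against 17.9% of all windows. In Cdk1, TTTGAA stands at 71 and 15 bases before the start, as shown above.

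**Figure D5:**
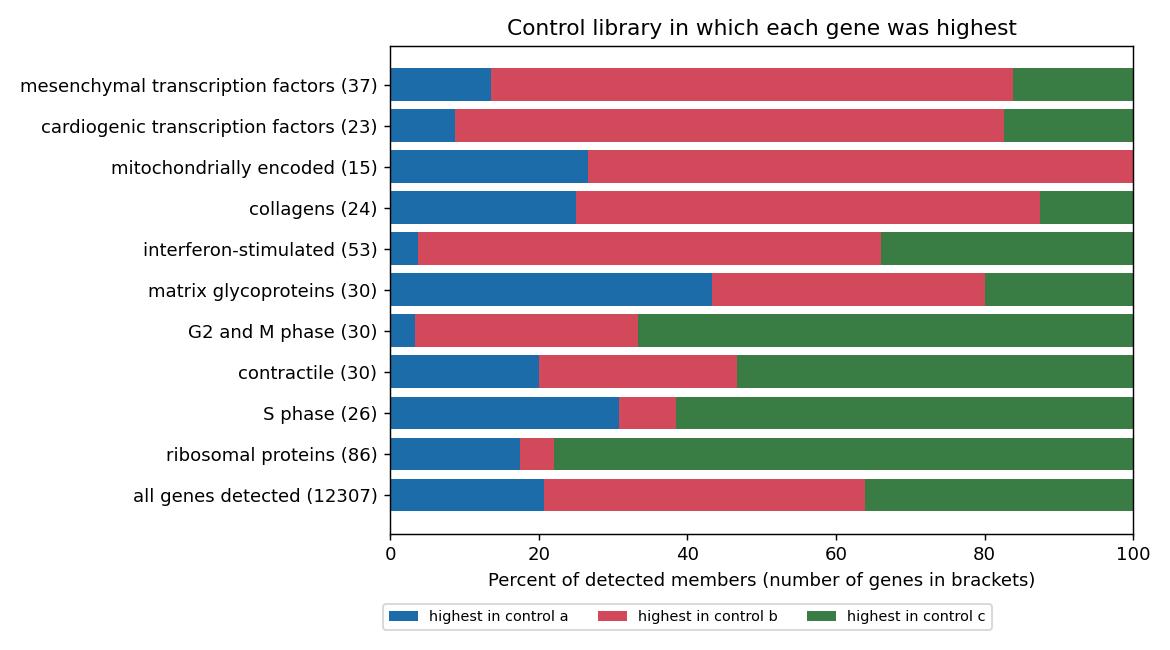
Percentage of detected genes of each list that were highest in control library a, b or c, with the number of genes in brackets. Library b was highest for most transcription factors and collagens, and library c for most S phase and ribosomal protein genes, beside 43.2% and 36.1% of all detected genes.

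Markers of other cell types were low but not absent. Of 23 leukocyte genes 12 were detected, close to the 55.0% of all protein-coding genes. By CPM they were led by Lyz2, lysozyme of macrophages, at 20.7, 17.0 and 19.4 CPM and Csf1r at 10.6, 8.45 and 10.9 CPM. Ptprc, the gene of CD45 that had been sorted against, was at 2.02, 3.00 and 1.91 CPM. The summed leukocyte level was 66.3, 59.5 and 59.2 CPM, and S100a9, Cd3e and Nkg7 were among the genes with no count. Of 15 endothelial genes 9 were detected, also near that share, led by Tek, the angiopoietin receptor, at 27.3, 36.0 and 20.5 CPM. Pecam1, the gene of CD31, was at 3.05, 7.83 and 5.77 CPM, and Cdh5 at 2.29, 5.20 and 3.53 CPM, both lowest in a and highest in b.

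Of 21 cardiomyocyte genes 4 were detected, below the 55.0% of all protein-coding genes. Atp2a2, the calcium pump SERCA2 that many cell types share, was at 475 ± 25.7 CPM, and Tnnt2 at 29.9, 23.9 and 23.1 CPM, while Myh6, Myh7, Actc1 and Myl2 had at most 0.0540 CPM and Nppa, Pln, Myl3 and Myl7 had no count. Pericyte genes other than Pdgfrb, Mcam and Notch3 were at 4.37 CPM or less in every library, the highest being Cspg4, with Kcnj8 and Abcc9 near 0. Of 14 epicardial and mesothelial genes 6 were detected (42.9%), also below that share. They were led by the retinoid enzymes Aldh1a1 at 263 ± 13.1 and Aldh1a2 at 66.5 ± 11.6 CPM. Msln and Wt1, which mark mesothelium, were at or under 0.837 CPM in every library, but other members of the list were detected. Lrrn4 was at 32.2, 15.9 and 26.1 CPM and Upk1b at 4.37, 2.15 and 3.38 CPM. Krt19 was at 13.2 ± 2.29 TPM. Upk3b, also mesothelial, was the least even at 3.89, 1.72 and 1.64 CPM.

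The genes that differed most between the controls were few and of several kinds. Rorb, a nuclear receptor, was at 8.20, 125 and 191 CPM and stood out by its low level in library a. The other 9 of the 10 genes with the highest CV were each highest in b. Btg3, an antiproliferative gene, was at 34.1, 110 and 52.9 CPM, and Zfp991, Zfp758 and Zfp979, all zinc finger genes, were also lowest in c. Zfp991 shares 75.9% of its windows with other genes and is uncertain. Zinc finger genes named Zfp made up 26 of the 341 genes high in b, 7.62%, and 23 of the 134 genes low in c, 17.2%, against 2.58% of detected genes. Ribosomal protein genes moved in the opposite sense: library b was the lowest for 78 of 86, against 40.5% of all detected genes. Their summed levels were 34535, 29449 and 36634 CPM. Of mitochondrially encoded genes 11 of 15 were highest in b, against 43.2% of all detected genes, with sums of 9035, 10310 and 7880 CPM.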

How the data were processed

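RNA was sequenced as 75 base single-end reads after poly(A) selection. The authors aligned reads to GRCm38 with Bowtie2 and estimated counts with RSEM, per the study's methods, whereas the submitters' processing notes name Bowtie, RSEM and mm9. The deposited values are RSEM expected counts, whole numbers without normalization. Only the 3 control columns were used, and every column belonged to a sample of the series. RSEM divides reads among similar genes, so genes with near-identical copies are less certain.

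Gene symbols, positions and exon lengths came from GENCODE M21 on GRCm38, which may differ from the authors' annotation, and 37607 of 38924 identifiers had a symbol (0.265% of counts had none). Libraries were scaled by TMM factors in edgeR 4.0.16 under R 4.3.3. TPM used the union of exons. The biological coefficient of variation was estimated by edgeR, and the procedure was tested on simulated counts. With a single group there was no comparison and no p-value. Promoters came from the RefSeq table for GRCm38.p6, with 250 bases before and 50 after the start, 32851 windows in all. Windows shared with other genes are runs of 75 bases.

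The genes named, not all with values, were the 20 genes highest by CPM, the 15 highest per length, the markers, the 5 highest and the lowest detected or absent members of each list, the least even member of each list (with a mean of at least 1 CPM), Gata4 and Tbx20, and the 10 genes with the highest CV at a mean of at least 10 CPM. Some genes that this rule takes are not reported here. Other list members were chosen after their values were seen. The members and the gene lists were chosen with earlier results of these data known. Collagen, Hox, ribosomal protein and mitochondrial lists were taken by symbol, older names of the study's lists were matched through RefSeq synonyms, and results of the ribosomal RNA-like, cytokine, Schwann and adipocyte and sex-linked lists stand in the closing section. Alternatives were other scalings, detection rules and gene lengths and leaving out each library. Intervals and floors cover counting error only.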

Additional observations from a re-analysis of the deposited data

How the results depend on the processing

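No paired analysis was possible because only the control group was used and its values come from no test. Library b decided most of the spread: the common biological coefficient of variation was 14.3% with all controls and 8.50 to 18.5% when a library was left out, lowest without b, and genes with a CV of at least 30% numbered 575 and 267 to 1213, fewest without b and most without a. Counting only genes with at least 10 CPM in every library gave 227. Genes detected were 12307, and 20982 when a count in any library sufficed, with 12375 to 12484 when a library was left out. Summed CPM of the 7 markers was 19882 and 19639 to 20334, of the study's lung list 203 and 202 to 206, and of its list for all organs 277648 and 271621 to 285726 when a library was left out. Scaling without ribosomal RNA-like, 7S and mitochondrially encoded genes gave 207 CPM for the lung list. Of the 15 genes highest per length, 11 remained with the longest transcript as length, 10 with the principal transcript (an alternative added after the data were seen) and 4 with the median transcript. Other scalings left every list sum but that of lung within 1 SD. At 1 CPM counting error alone was 16.4 to 17.3%.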

Other observations

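The controls also expressed secreted signals. Of 28 fibroblast cytokines and growth factors 26 were detected, against 55.0% of all protein-coding genes. Csf1, the growth factor of macrophages, was at 1993, 1799 and 2162 CPM, and Ptx3, a soluble pattern receptor, at 912, 992 and 1008 CPM. The monocyte chemokines Ccl2 and Ccl7 were nearly even, with Ccl2 at 286, 284 and 283 CPM and Ccl7 at 223, 239 and 234 CPM. Igf1, a growth factor for muscle, was the least even at 34.1, 59.9 and 25.9 CPM, and Ccl11 and Lcn2 were at 0.179 CPM or less. Of 10 Schwann cell and adipocyte genes 2 were detected, Mbp and Fabp4, below that share, with summed levels of 6.61, 4.44 and 7.17 CPM for the list.

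Beside Xist, every control library held Y-linked transcripts, with Ddx3y at 36.5, 61.7 and 35.7 CPM, with Eif2s3y, Uty and Kdm5d also detected. The study's methods name male mice, and whether cells of other animals were included was not tested.

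Gm42418 and Lars2, which overlap or resemble ribosomal RNA, were high together in library a, with Lars2 at 1860, 832 and 1086 CPM. Rn7sk, a small nuclear RNA without a poly(A) tail, was at 41.9, 12.0 and 40.5 CPM, lowest in b.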
